A study of Mus musculus with 150 samples.

Results

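The genes described here encode the enzymes of fatty acid synthesis and a regulator of that pathway, followed in mouse lung over strain, styrene exposure and week. The list named 7 genes, Acly, Acaca, Fasn, Elovl6, Scd1, Scd2 and Srebf1, and each gene was read from the probe set annotated to it with the highest mean over all arrays. The annotation used here named probe sets for 5 of the 7, with 10 probe sets in all. Scd2 and Srebf1 were not analysed here. The 5 measured genes all passed the filter on dim probe sets and were part of the 15695 genes tested, out of 17097 genes named.

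Whole lung RNA came from 150 adult male mice, 1 array per mouse, of which 79 had inhaled styrene at 120 ppm and 71 had breathed air alone (0 ppm). The CD-1 mice, an outbred stock, numbered 42. The rest were C57BL/6 mice of 3 genotypes. Of these, 38 were TG mice, which lack CYP2F2, a styrene-metabolising cytochrome P450 of club cells, and carry transgenes labelled 2F1, SA13 and 2B6. Another 39 were KO mice, which lack CYP2F2 and carry no transgene, and 31 were wild type (WT). No source used here names the promoter that drives the transgenes. Exposures lasted 26, 52, 78 or 104 weeks by the sample labels, which are used here, while the treatment protocol speaks of shorter ones. The mice fell into 31 groups of 2 to 10, with no WT mice breathing air at 26 weeks.

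Fatty acid synthesis turns citrate into long-chain fatty acids in the cytosol. In the lung it is best known from alveolar type 2 cells, which use palmitate for the phospholipids of surfactant. The transcription factors SREBP and LXR are known to drive the genes of the pathway in liver and other tissues. Acly, ATP citrate lyase, splits citrate to give acetyl-CoA, and Acaca, acetyl-CoA carboxylase, turns acetyl-CoA into malonyl-CoA. Fasn, fatty acid synthase, builds palmitate from them. Elovl6 lengthens palmitate to stearate, and Scd1, stearoyl-CoA desaturase, introduces a double bond into the product.

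The start regions of Fasn and Acly are shown because these genes passed the styrene test together in CD-1 lungs and varied together between mice. Both are from RefSeq on GRCm38.p6 and run from 250 bases before to 50 bases after the gene's start. The Fasn window is chr11:120824498-120824797 on the minus strand, and the Acly window is chr11:100527951-100528250 on the minus strand. Capitals mark matches, on either strand, to CCAAT, the NF-Y core, or to GGGCGG, the GC box.
Fasn: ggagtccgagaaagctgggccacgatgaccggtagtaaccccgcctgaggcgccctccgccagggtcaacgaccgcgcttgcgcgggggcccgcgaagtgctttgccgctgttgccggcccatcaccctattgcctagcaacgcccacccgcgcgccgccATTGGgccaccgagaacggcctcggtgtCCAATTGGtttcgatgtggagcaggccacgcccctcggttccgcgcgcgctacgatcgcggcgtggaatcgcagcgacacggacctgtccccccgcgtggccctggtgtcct
Acly: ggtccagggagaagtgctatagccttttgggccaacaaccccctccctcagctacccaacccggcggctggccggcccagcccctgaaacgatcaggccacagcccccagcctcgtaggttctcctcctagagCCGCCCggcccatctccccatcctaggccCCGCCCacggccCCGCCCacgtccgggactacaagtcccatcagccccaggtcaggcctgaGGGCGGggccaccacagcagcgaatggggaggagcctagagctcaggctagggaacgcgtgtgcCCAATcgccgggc

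The Fasn window held 3 matches to CCAAT, whose first bases lay at -90, -62 and -59 from the start, and the last of these overlapped its neighbour on the other strand. It held no match to GGGCGG. The Acly window held 4 matches to GGGCGG, at -117, -88, -76 and -27, and 1 match to CCAAT at 38 past the start. Of the 32851 windows of this length, 37.4% held CCAAT and 35.7% held GGGCGG on either strand. Neither window held CACNCCA, a form of the sterol response element found in 18.4% of windows, or the E-box CACGTG found in 7.15%. The Acaca and Elovl6 windows held no match to any of the 4 motifs, and the windows of Scd1 were not used here.

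The arrays gave log2 intensities already normalised by the authors, so each value below is a log2 signal of 1 probe set and levels of different genes are not compared. Defining markers of lung were present, with Sftpc, the type 2 cell surfactant protein, between 13.65 and 13.93 on all arrays. The brown fat marker Ucp1 ranged from 2.8 to 8.35 and the fat marker Adipoq from 2.63 to 10.37 between mice. Arrays lay on 4 plates. At 104 weeks the air arrays were on plate 3 and the styrene arrays on plate 4, apart from 2 KO and 2 TG styrene arrays on plate 3 or 4, so plate and exposure cannot be told apart at that time. Plate 2 held, from 78 weeks, 4 of the 5 WT styrene arrays and every KO and TG one. In whole lung, fewer cells of a type and less RNA per cell cannot be told apart.

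The 5 genes differed in how much they varied between mice of 1 group. The within-group SD was 0.12 for Acly, at percentile 2.7 of all genes tested, 0.19 for Acaca, 0.20 for Scd1, 0.26 for Fasn and 0.38 for Elovl6, at percentile 89.5. Acly was thus among the genes with the smallest spread on the array. The 31 group means spanned 0.45 for Acly, with the lowest mean of 10.39 in CD-1 mice in air at 52 weeks and the highest of 10.84 in WT mice in styrene at 78 weeks. Fasn group means spanned 0.90, from 10.23 in CD-1 air mice at 52 weeks to 11.14 in TG styrene mice at 78 weeks. Acaca means spanned 0.52, Scd1 means 0.48 and Elovl6 means 0.77.

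Other probe sets of the same genes tracked the ones used to differing degrees. Across within-group deviations, the second probe set correlated with the first at r = 0.85 for Scd1, 0.75 for Acly, 0.44 for Acaca and 0.38 for Elovl6. The second Acaca probe set averaged 3.27 and was above the filter level on 113 of 150 arrays, and the second Elovl6 probe set averaged 3.29 and was above it on 123. Both were near the dim end, where background compresses differences. Fasn had a single probe set. The values of all 5 genes in every mouse are plotted by strain, exposure and week.

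**Figure D1:**
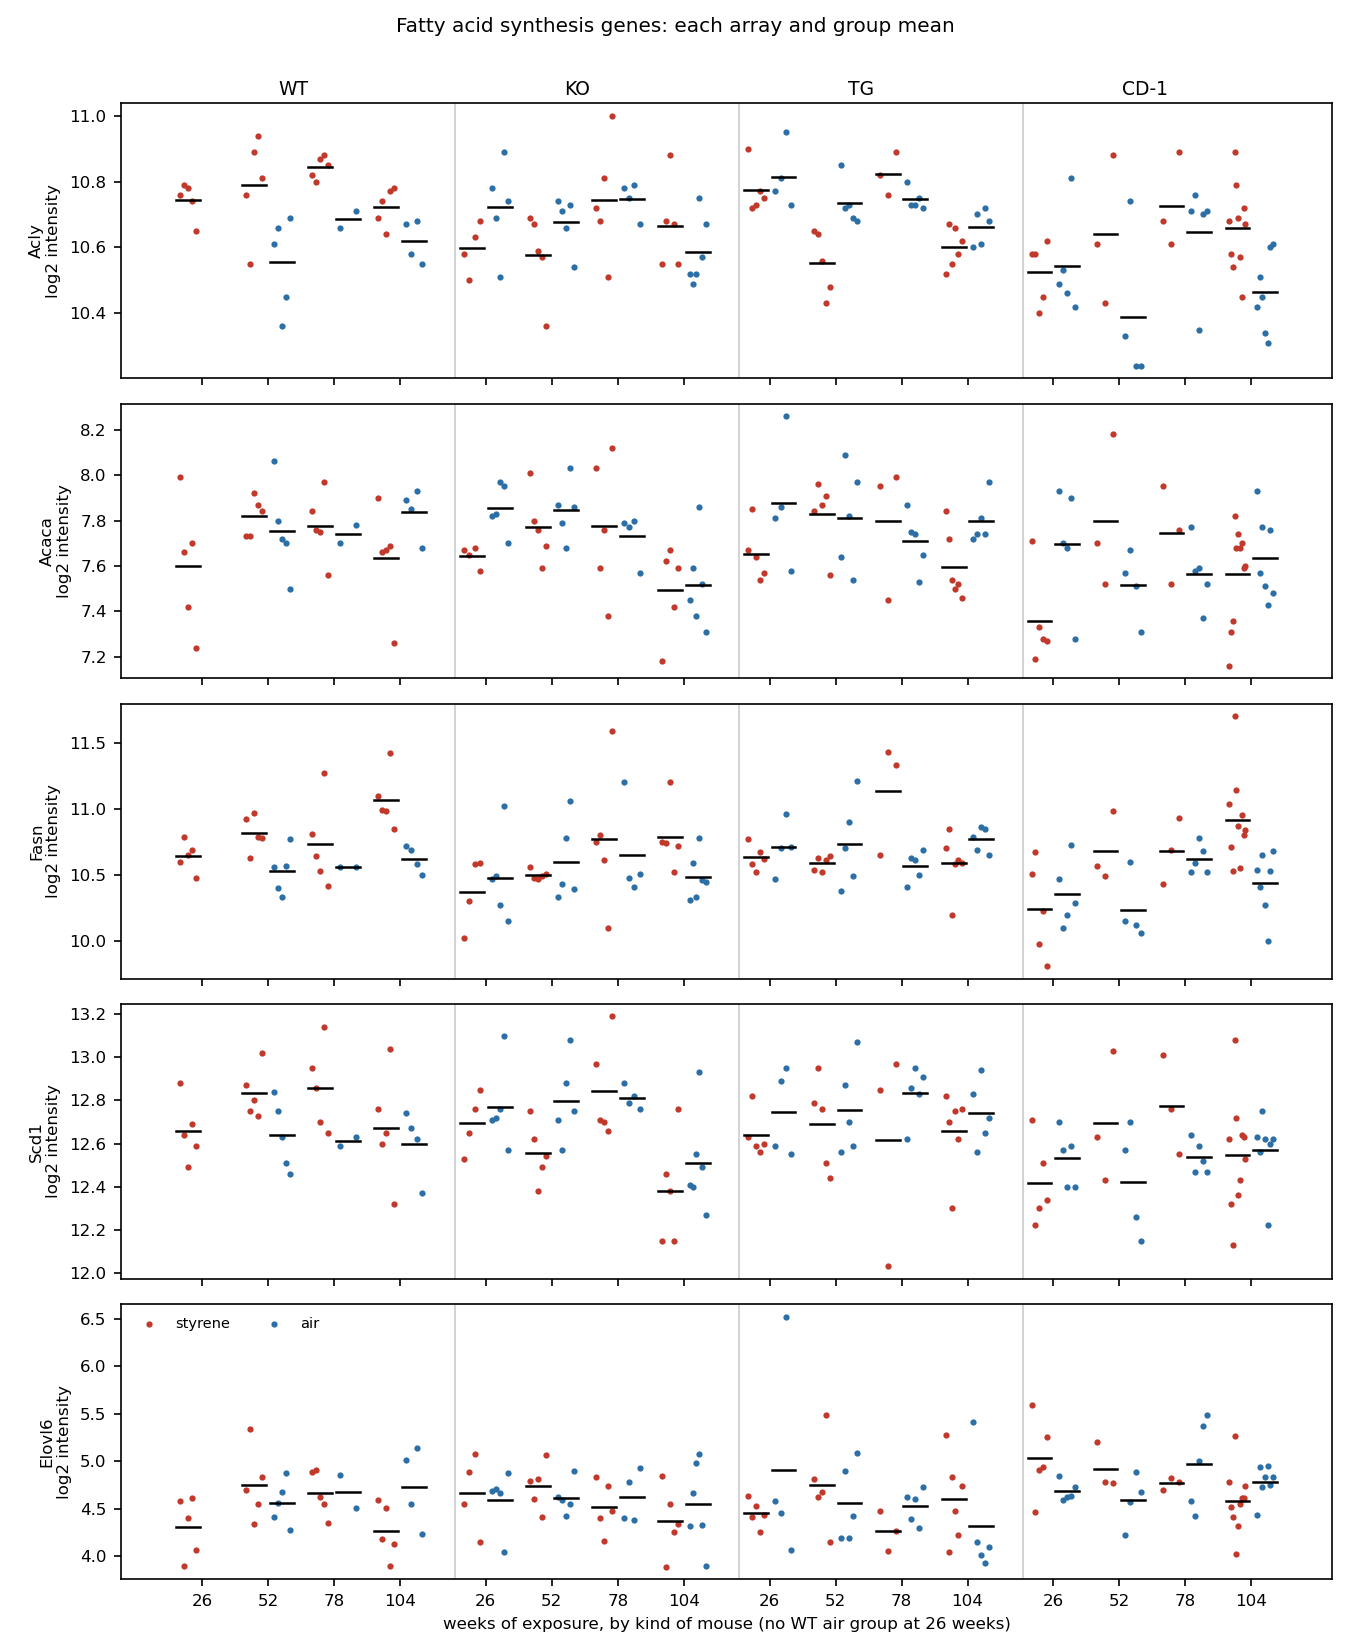
Log2 signal of Acly, Acaca, Fasn, Scd1 and Elovl6 in each mouse (points), by strain and week, with styrene left of air and the black bar at the group mean. The 150 arrays hold no WT air group at 26 weeks. Fasn in WT mice at 104 weeks lies between 10.85 and 11.42 in styrene and between 10.5 and 10.72 in air, with no overlap.

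The first comparison asked whether styrene changed the pathway within a strain and week. After 104 weeks, Fasn was higher in styrene than in air in WT mice by 1.36-fold and in CD-1 mice by 1.39-fold, and Acly was higher in CD-1 mice by 1.14-fold. These were the only calls among 75 tests of the 5 genes in 15 comparisons, by limma over all genes at an adjusted p under 0.05. No gene of the 5 passed in the 55 tests at 26, 52 and 78 weeks, where 0.133% of all genes over the 11 comparisons were called and 6 of the 55 had an unadjusted p under 0.05. At 104 weeks far more of the array moved, with 48% of all genes called in WT mice (29.6% higher, 18.3% lower), 63.6% in CD-1 mice (42.8% higher, 20.7% lower), 39.4% in KO mice (23.9% higher, 15.4% lower) and 0% in TG mice. Read against that background, 1 of 5 genes called in WT and 2 of 5 in CD-1 mice is no more than the share of all genes.

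In WT mice at 104 weeks, Fasn read 11.1, 10.99, 10.98, 11.42 and 10.85 in styrene, against 10.72, 10.69, 10.58 and 10.5 in air. All 5 styrene mice lay above all 4 air mice. The difference was 0.45 (SE 0.171, 95% interval 0.11 to 0.78, limma adjusted p = 0.0247). It no longer passed when replicate 4 in styrene was left out (0.36, limma adjusted p = 0.089), nor without air replicate 3 (0.43, limma adjusted p = 0.0513) or air replicate 4 (0.41, limma adjusted p = 0.0666).

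In CD-1 mice at 104 weeks, Fasn had a lowest, median and highest value of 10.53, 10.85 and 11.7 in styrene (n = 10), against 10, 10.53 and 10.68 in air (n = 7). The groups overlapped, yet all 10 styrene mice were above the air mean of 10.44. The difference was 0.47 (SE 0.126, 95% interval 0.22 to 0.72, limma adjusted p = 0.000712). Mice with a tumour label made up 5 of the 10 styrene and 2 of the 7 air mice, and the highest Fasn value, 11.7 in replicate 4, was in one of them. Without tumour-labelled mice the difference was 0.29 (limma adjusted p = 0.11).

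Acly in CD-1 mice at 104 weeks ran 10.45, 10.67 and 10.89 (lowest, median and highest) in styrene, against 10.31, 10.45 and 10.61 in air. The ranges overlapped, and 9 of 10 styrene mice were above the air mean. The difference was 0.19 (SE 0.0595, 95% interval 0.08 to 0.31, limma adjusted p = 0.00311), and 0.08 without tumour-labelled mice (limma adjusted p = 0.362).

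KO and TG mice, which both lack CYP2F2, gave no call at 104 weeks. Fasn in KO mice read 10.75, 10.74, 11.2, 10.52 and 10.72 in styrene, against 10.31, 10.46 and 10.78 (lowest, median and highest of 6) in air, a difference of 0.30 (limma adjusted p = 0.115). In TG mice it read 10.2, 10.6 and 10.85 (lowest, median and highest of 6) in styrene, against 10.79, 10.69, 10.86, 10.85 and 10.65 in air, a difference of -0.18 (limma adjusted p = 0.93). Both sets overlapped.

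The styrene difference in Fasn was itself compared between strains. At 104 weeks it was larger in WT than in TG mice by 0.62 (SE 0.231, limma adjusted p = 0.0251), where 37.3% of all genes differed, and larger in CD-1 than in TG mice by 0.65 (SE 0.199, limma adjusted p = 0.00517), where 46% did. Without WT styrene replicate 4 the WT to TG difference was 0.54 (limma adjusted p = 0.0608), and without tumour-labelled mice the CD-1 to TG difference was 0.48 (limma adjusted p = 0.0785). For Acly the CD-1 styrene difference exceeded that of TG mice by 0.26 (SE 0.0943, limma adjusted p = 0.0199), and by 0.14 without tumour-labelled mice (limma adjusted p = 0.297). These 3 were the only calls among 105 such tests, where 5.73% of all genes passed. Averaged over weeks none of 15 tests passed, against 0.0531% of all genes. The WT to KO difference at 104 weeks was not among the calls, and 0.0127% of all genes passed there.

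Values of alveolar type 2 markers at 104 weeks stand beside those of Fasn. The mean of 12 such markers lay between 10.87 and 11.02 in WT styrene mice, against 10.66 to 10.73 in WT air mice. In CD-1 mice it lay between 10.67 and 11.15 in styrene, against 10.41 to 10.8 in air. In KO mice it lay between 10.68 and 10.89 in styrene, against 10.63 to 10.77 in air, and in TG mice between 10.55 and 10.84 in styrene, against 10.77 to 10.94 in air. Of the 12 markers, 5 were higher and 1 lower in WT styrene lungs, and 7 were higher and 1 lower in CD-1 styrene lungs. Those 6 of 12 and 8 of 12 are near the 48% and 63.6% of all genes called. The list medians were 0.19 in WT, against 0.12 over all genes, and 0.25 in CD-1 lungs, against 0.16. Etv5, a transcription factor of type 2 cells, rose by 0.77 (limma adjusted p = 1.79e-05) in WT and by 0.57 (limma adjusted p = 6.01e-06) in CD-1 lungs. The marker mean was also added as a covariate, after seeing the data. The Fasn difference was then -0.06 in WT (limma adjusted p = 0.747) and 0.00 in CD-1 mice (limma adjusted p = 0.977). The Acly difference in CD-1 mice was then 0.05 (limma adjusted p = 0.467). In WT mice the marker mean itself did not overlap between styrene and air, and plate coincided with exposure. Such a covariate carries part of the exposure and plate difference, so these cannot be told apart. The part of type 2 cells was not tested.

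**Figure D2:**
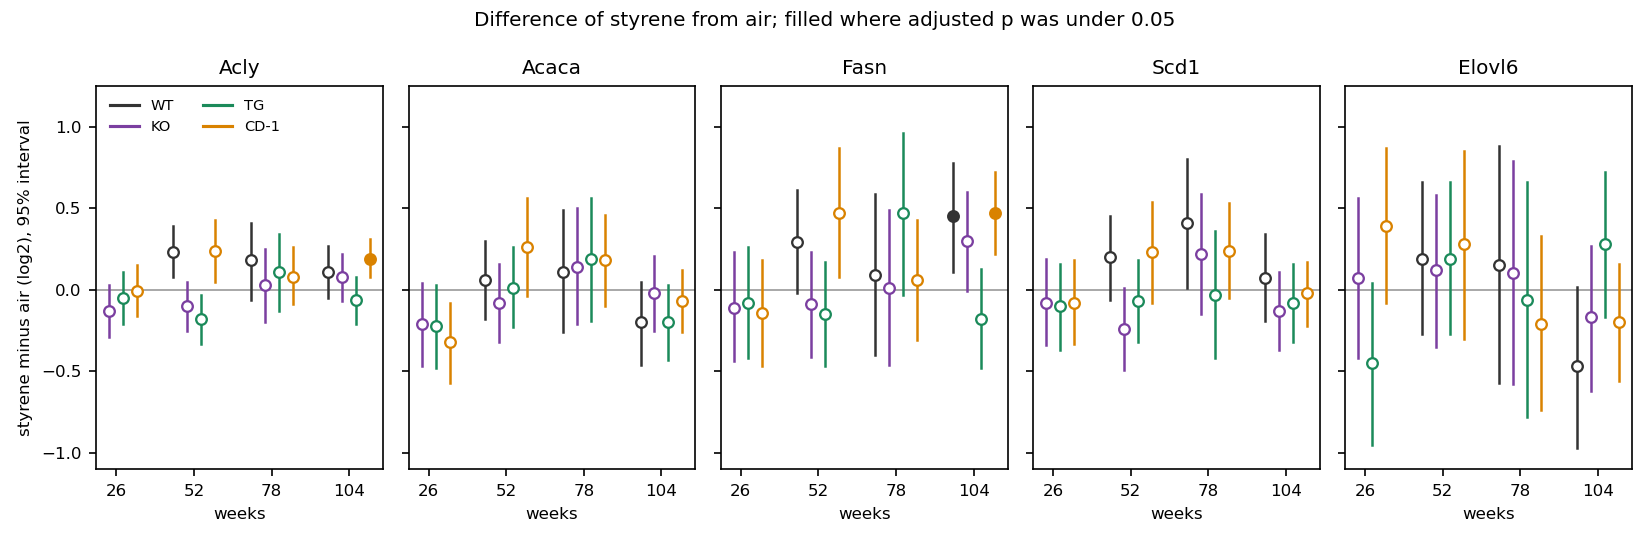
Styrene minus air difference in log2 signal with its 95% interval for each gene, strain and week; filled points passed an adjusted p under 0.05. The filled points are Fasn in WT (0.45) and CD-1 mice (0.47) and Acly in CD-1 mice (0.19), all at 104 weeks.

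The remaining genes of fatty acid synthesis and elongation, 22 of them tested, were counted at 104 weeks in the same way. In WT styrene lungs 13 were higher and 1 lower, with a median difference of 0.35 against 0.12 over all genes. In CD-1 styrene lungs 15 were higher and 2 lower, with a median of 0.47 against 0.16. In KO lungs 7 were higher and 2 lower, and in TG lungs none was called, as for all genes there. Over all genes, 29.6% were higher and 18.3% lower in WT, and 42.8% higher and 20.7% lower in CD-1 lungs. In KO lungs those shares were 23.9% and 15.4%. The plates of the 2 exposures differ here as well.

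Slc25a1, the mitochondrial carrier that exports the citrate used by Acly, rose by 0.87 in WT (SE 0.155, limma adjusted p = 4.03e-06) and by 0.82 in CD-1 lungs (SE 0.114, limma adjusted p = 1.36e-09). Acss2, which makes acetyl-CoA from acetate, rose by 0.92 in CD-1 lungs (limma adjusted p = 2.34e-11). Fads2, a desaturase of polyunsaturated fatty acids, rose by 1.07 in CD-1 lungs (limma adjusted p = 1.05e-10). Mid1ip1, whose protein activates acetyl-CoA carboxylase, rose by 0.53 in WT and by 0.54 in CD-1 lungs. Acaca itself averaged 7.56 in CD-1 styrene mice and 7.63 in CD-1 air mice and was not called. Its second, dim probe set gave another result, with a called difference of -0.38 in CD-1 (limma adjusted p = 0.00818) and -0.55 in WT lungs (limma adjusted p = 0.00792).

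Genes of SREBP and LXR control gave 6 higher and 2 lower of 11 in WT styrene lungs at 104 weeks. They gave 7 higher and 2 lower in CD-1 lungs, and 6 higher and 1 lower in KO lungs. Of all genes, 48% were called in WT, 63.6% in CD-1 and 39.4% in KO mice. Medians of this list were 0.35 in WT, against 0.12 over all genes, and 0.21 in CD-1 lungs, against 0.16. In KO lungs the median was 0.23, against 0.11. Scap, the escort of SREBP from the endoplasmic reticulum, rose by 0.63 in WT (limma adjusted p = 5.69e-07) and by 0.44 in CD-1 lungs (limma adjusted p = 3.42e-07). Mbtps2, a protease that releases SREBP, was lower by log2 -1.13 in WT and -1.08 in CD-1 lungs. The 17 cholesterol synthesis genes, also known SREBP targets, gave 8 higher and 1 lower in WT, 8 higher and 2 lower in CD-1, and 1 higher and 3 lower in KO lungs. The total called, 9 of 17 in WT and 10 of 17 in CD-1, is near the 48% and 63.6% of all genes. The list medians were 0.46 in WT, against 0.12 over all genes, 0.23 in CD-1, against 0.16, and -0.13 in KO lungs, against 0.11. Mvk, mevalonate kinase, rose by 1.1 in WT (SE 0.163, limma adjusted p = 1.19e-07) and by 0.79 in CD-1 lungs (SE 0.12, limma adjusted p = 1.46e-08).

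Of 19 genes of triglyceride and phospholipid synthesis, 9 were higher and 3 lower in WT, and 12 higher and 1 lower in CD-1 styrene lungs. Of all genes, 48% were called in WT and 63.6% in CD-1 mice. The medians of these 19 genes were 0.22 in WT, against 0.12 over all genes, and 0.37 in CD-1 lungs, against 0.16. Dgat2, which adds the last acyl chain of triglyceride, rose by 1.00 in WT and by 1.22 in CD-1 lungs. Of 20 fatty acid oxidation genes, 9 were higher and 3 lower in WT, and 11 higher and 1 lower in CD-1 lungs. These totals, 12 of 20 in each strain, compare with 48% of all genes in WT and 63.6% in CD-1 mice. The oxidation list median in WT lungs equalled that over all genes, 0.12, and in CD-1 lungs it was 0.35, against 0.16. In KO lungs 8 of the 20 oxidation genes were higher and 1 lower, where 39.4% of all genes were called. Their median in KO lungs was 0.25, against 0.11. In TG lungs none was called, as for all genes there. Pdk4, a kinase that curbs pyruvate dehydrogenase, was 1 of the 3 oxidation genes lower in WT lungs, by log2 -1.58 (limma adjusted p = 0.000232).

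Before 104 weeks the 5 genes gave no call. Averaged over the weeks to 78, all 5 were nominally higher in WT and in CD-1 styrene mice, with medians of 0.19 and 0.13 against 0.00 and 0.01 over all genes, and 1 of 5 was in KO and in TG mice. None of these 20 tests passed, and 0.218% of all genes over the 4 comparisons did. Acly in WT mice at 52 weeks read 10.76, 10.55, 10.89, 10.94 and 10.81 in styrene, against 10.61, 10.66, 10.36, 10.45 and 10.69 in air. The ranges overlapped, and the difference was 0.23 (SE 0.0764, limma adjusted p = 0.156). Scd1 in WT mice at 78 weeks read 12.95, 12.86, 12.7, 13.14 and 12.65 in styrene, against 12.59 and 12.63 in air, with no overlap. The difference was 0.41 after the term for plate 2 (limma adjusted p = 0.999). Most of these styrene arrays and neither air array lay on plate 2, so 0.41 is larger than the plain difference of the values.

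The second set of comparisons asked whether strains differed. In mice breathing air, none of 20 tests over weeks and none of 65 tests at single weeks passed for the 5 genes, where 4.64% and 1.63% of all genes did. Between CD-1 and WT mice in air 17.4% of all genes differed. Acly was not called there with all mice, but was at -0.16 (limma adjusted p = 0.0132) without CD-1 replicate 2 at 52 weeks. The styrene effect on Acly, averaged over weeks, was not called as different between CD-1 and WT mice. In styrene-exposed mice 1 of 20 tests passed, against 5.79% of all genes. Acly averaged 10.64 in CD-1 and 10.77 in WT styrene mice, a difference of -0.14 (SE 0.0418, 95% interval -0.22 to -0.06, limma adjusted p = 0.00819), where 17.2% of all genes were called (8% higher, 9.24% lower).

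The Acly values of single mice overlapped at 3 of the 4 weeks. At 26 weeks Acly read 10.58, 10.58, 10.4, 10.45 and 10.62 in CD-1, against 10.76, 10.79, 10.78, 10.74 and 10.65 in WT styrene mice, with no overlap. At 52 weeks it read 10.61, 10.43 and 10.88 in CD-1, against 10.76, 10.55, 10.89, 10.94 and 10.81 in WT mice. At 78 weeks it read 10.68, 10.61 and 10.89 in CD-1, against 10.82, 10.8, 10.87, 10.88 and 10.85 in WT mice. Both of these pairs overlapped.

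At 104 weeks Acly ran 10.45, 10.67 and 10.89 (lowest, median and highest) in CD-1 mice and spanned the WT values of 10.69, 10.74, 10.64, 10.77 and 10.78. The averaged difference kept its call when each mouse was left out in turn, with a limma adjusted p of at most 0.0491. With the type 2 marker mean as a covariate it was -0.07 (limma adjusted p = 0.198), and the part of type 2 cells was not tested. Of the 12 type 2 markers, 1 was higher and 5 lower in CD-1 than in WT styrene lungs, with Sftpd, a surfactant protein, at -0.35 (limma adjusted p = 5.42e-08). Cholesterol synthesis genes moved the same way, with none higher and 10 of 17 lower in CD-1 lungs, and a median of -0.37 against 0.01 over all genes.

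At single weeks, 2 of 80 tests between styrene-exposed strains passed, against 11.6% of all genes. Elovl6 at 26 weeks read 5.59, 4.46, 4.91, 4.94 and 5.25 in CD-1, against 4.58, 3.9, 4.4, 4.61 and 4.06 in WT mice. Only 1 CD-1 mouse fell inside the WT range, and the difference was 0.76 (SE 0.24, 95% interval 0.29 to 1.24, limma adjusted p = 0.0374), with 5.56% of all genes called. It was lost in 7 of 10 omissions of 1 mouse, and the second probe set gave 0.11 (limma adjusted p = 0.769). The mean of brown fat markers was 5.76 to 7.07 in CD-1 and 5.31 to 5.92 in WT mice of these groups. Their part in the Elovl6 difference was not tested.

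Fasn at 104 weeks averaged 10.59 in TG and 11.07 in WT styrene mice, a difference of -0.48 (SE 0.154, limma adjusted p = 0.00699), with all 6 TG mice below the WT mean and the highest, 10.85, equal to the lowest WT value after rounding. At that time 47.9% of all genes were called between these groups. With the type 2 marker mean as a covariate the difference was -0.10 (limma adjusted p = 0.495). The marker mean differed between these groups as well, and the part of type 2 cells was not tested.

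The third set followed the weeks. In styrene-exposed mice, Acaca was higher at 52 than at 26 weeks by 1.18-fold, and this call held in each omission of 1 mouse (limma adjusted p up to 0.0288). It averaged 7.80 at 52 and 7.56 at 26 weeks over the 4 strains, a difference of 0.23 (SE 0.0646, 95% interval 0.11 to 0.36, limma adjusted p = 0.00391), where 27.6% of all genes were called (10.5% higher, 17.1% lower). In CD-1 mice Acaca read 7.7, 7.52 and 8.18 at 52 weeks, against 7.71, 7.19, 7.33, 7.28 and 7.27 at 26 weeks. In WT mice it read 7.73, 7.73, 7.92, 7.87 and 7.84 at 52 weeks, against 7.99, 7.66, 7.42, 7.7 and 7.24 at 26 weeks. Both pairs overlapped.

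In TG mice Acaca read 7.84, 7.96, 7.87, 7.91 and 7.56 at 52 weeks, against 7.67, 7.85, 7.64, 7.54 and 7.57 at 26 weeks. In KO mice it read 8.01, 7.8, 7.76, 7.59 and 7.69 at 52 weeks, against 7.67, 7.65, 7.68 and 7.58 at 26 weeks. The difference was 0.42 in CD-1, 0.21 in WT, 0.17 in TG and 0.13 in KO mice, none of which passed within its strain. In air-breathing mice the same contrast over KO, TG and CD-1 gave -0.08 (limma adjusted p = 0.652), where 2.39% of all genes were called. The difference between the styrene and air contrasts was not tested.

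Clock genes moved with the same contrast. Of 16 clock genes tested, 4 were higher and 8 lower at 52 than at 26 weeks in styrene. Arntl, which encodes the activator BMAL, rose by 1.36 (SE 0.229, limma adjusted p = 2.83e-06), and Dbp, a target of it, was lower by log2 -1.95 (limma adjusted p = 1.12e-05). The mean of Arntl, Clock and Npas2 was 6.67 at 52 and 4.58 at 26 weeks in CD-1 styrene mice, and 6.36 at 52 and 5.13 at 26 weeks in WT styrene mice. It was 6.56 at 52 and 6.16 at 26 weeks in TG styrene mice, and 6.37 at 52 and 5.92 at 26 weeks in KO styrene mice. The part of time of day in the Acaca difference was not tested. At 104 weeks clock genes were also called between styrene and air. In WT lungs 9 of the 16 were higher and 3 lower, and in CD-1 lungs 9 were higher and 2 lower. In KO lungs 1 was higher and 2 lower, and in TG lungs none was called. Of all genes, 48% were called in WT, 63.6% in CD-1, 39.4% in KO and 0% in TG mice. List medians were 0.57 in WT, against 0.12 over all genes, and 0.63 in CD-1 lungs, against 0.16. Their part in the Fasn and Acly differences was not tested.

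At 78 against 26 weeks in styrene, 24.3% of all genes were called (12.7% higher, 11.7% lower). Acaca was higher by 0.27 (SE 0.105, limma adjusted p = 0.0463) and Scd1 by 0.29 (SE 0.109, limma adjusted p = 0.0375). In KO and TG mice every styrene array at 78 weeks lay on a different plate from those at 26 weeks. The same held for most WT styrene arrays, and both differences therefore depend on the fitted plate term. Acaca at 78 weeks read 7.84, 7.76, 7.75, 7.97 and 7.56 in WT, 8.03, 7.59, 7.76, 7.38 and 8.12 in KO, 7.95, 7.45 and 7.99 in TG, and 7.95, 7.52 and 7.76 in CD-1 mice, which overlapped the values at 26 weeks in all 4 strains. In WT mice Scd1 read 12.95, 12.86, 12.7, 13.14 and 12.65 at 78 weeks, against 12.88, 12.64, 12.49, 12.69 and 12.59 at 26 weeks. In KO mice it read 12.97, 12.71, 12.7, 12.66 and 13.19 at 78 weeks, against 12.53, 12.65, 12.76 and 12.85 at 26 weeks. These groups overlapped.

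In TG mice Scd1 read 12.85, 12.03 and 12.97 at 78 weeks, against 12.63, 12.82, 12.59, 12.56 and 12.6 at 26 weeks. In CD-1 mice it read 13.01, 12.76 and 12.55 at 78 weeks, against 12.71, 12.22, 12.3, 12.51 and 12.34 at 26 weeks. Both pairs overlapped, and the TG mouse at 12.03 was the lowest Scd1 value of all 150. The Acaca call at 78 weeks was lost in 15 of 35 omissions of 1 mouse (limma adjusted p up to 0.273) and the Scd1 call in 7 of 35 (limma adjusted p up to 0.196). Both highest values came without CD-1 styrene replicate 2 at 26 weeks, the only array of its group on plate 2. With the replicate number as a block, Acaca was 0.24 (limma adjusted p = 0.0778) and Scd1 0.27 (limma adjusted p = 0.0644), so neither call held. Of the cholesterol synthesis genes, 7 were higher and 1 lower at 78 than at 26 weeks, led by Lss, lanosterol synthase, at 1.27 (limma adjusted p = 6.01e-07).

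In air-breathing mice 1 of 15 tests over weeks passed. Of the 15695 genes tested, 375 were called at 52 against 26 weeks. At 78 weeks 6458 were called against 52 weeks and 8272 against 26 weeks. Acly averaged 10.71 at 78 and 10.59 at 52 weeks, a difference of 0.12 (SE 0.043, limma adjusted p = 0.0235), where 41.1% of all genes were called. It was lost without WT replicate 2 at 78 weeks (limma adjusted p = 0.0656) or CD-1 replicate 4 at 52 weeks (limma adjusted p = 0.0577), and the second Acly probe set gave 0.00 (limma adjusted p = 0.982). Within single strains, none of 50 tests in air and none of 60 in styrene passed, where 10.4% and 6.35% of all genes did.

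The 5 genes were also followed between mice of the same group. After group means and the plate term were taken away, Acaca and Scd1 varied together over the 150 mice (r = 0.67, rho = 0.66, adjusted permutation p = 5.33e-05). Fasn followed Scd1 (r = 0.55, rho = 0.51) and Acly (r = 0.50, rho = 0.39), with the same adjusted p. The unadjusted p behind these was 1e-05, the smallest that the permutations within groups can give, and the adjustment covered 80 relations of the 5 genes with each other and with gene lists. Without the 2 mice farthest out, r was 0.70 for Acaca and Scd1, 0.50 for Fasn and Scd1, and 0.44 for Fasn and Acly.

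Weaker relations joined Fasn and Acaca (r = 0.39, adjusted permutation p = 0.000282), Acaca and Acly (r = 0.37, adjusted permutation p = 0.000444), and Scd1 and Acly (r = 0.35, adjusted permutation p = 0.0006). Elovl6 gave no relation with the other 4 that passed. Its r was 0.00 with Fasn (adjusted permutation p = 0.981), 0.21 with Acaca (0.0573), 0.17 with Scd1 (0.0954) and -0.13 with Acly (0.226). Within plates 1 to 4, with 88, 14, 22 and 22 arrays, r for Acaca and Scd1 was 0.68, 0.88, 0.65 and 0.52. For Fasn and Scd1 it was 0.52, 0.32, 0.72 and 0.83, and for Fasn and Acly 0.39, 0.71, 0.63 and 0.69, so all 3 relations kept their sign on every plate. Tissue amount, RNA quality and array scaling are shared by the genes of 1 mouse, and their part was not tested.

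**Figure D3:**
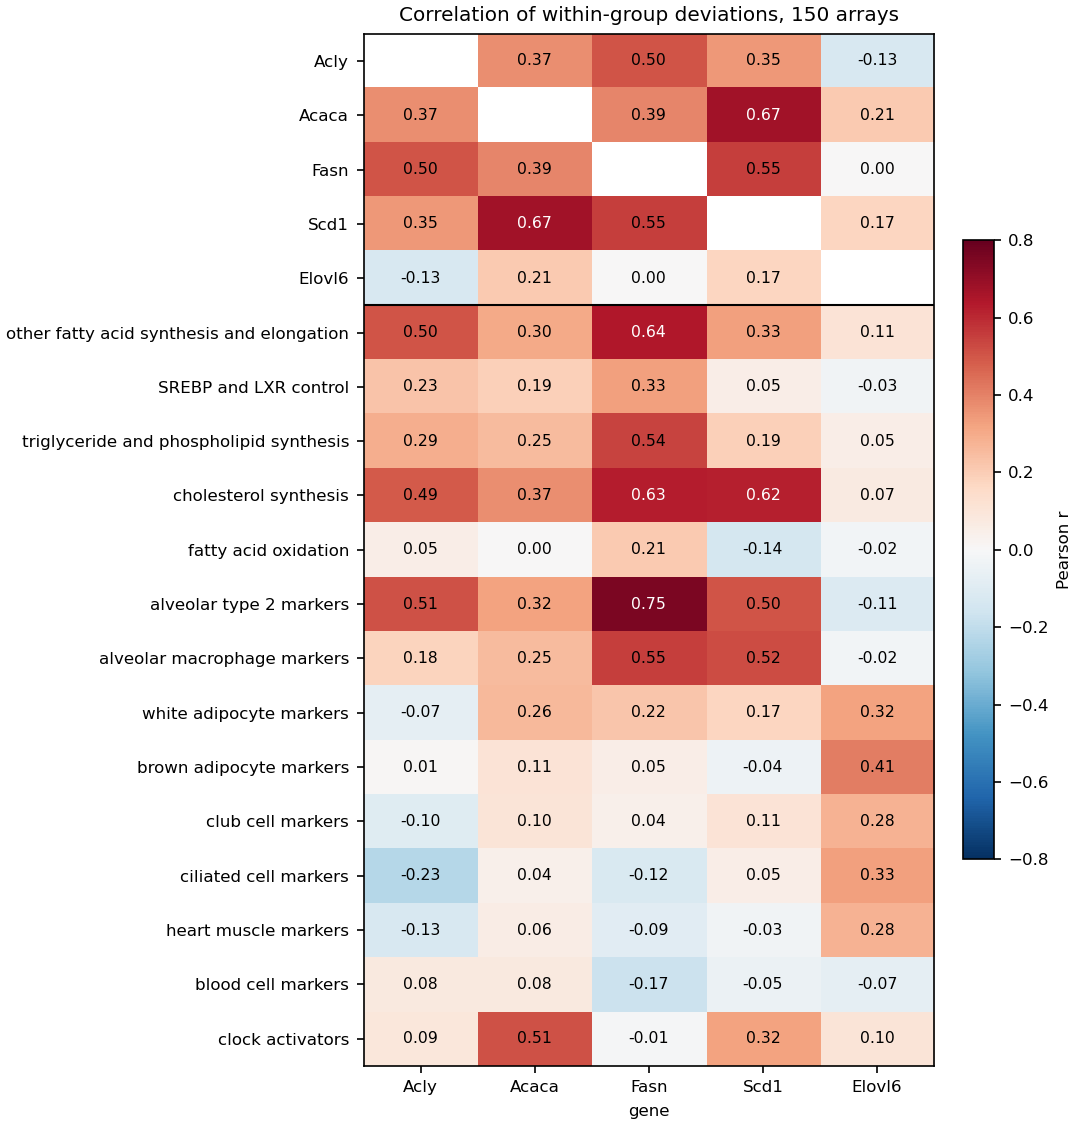
Pearson r over within-group deviations of 150 mice between the 5 genes and each other, and between the 5 genes and the mean of each gene list. The highest value among the 5 genes is Acaca with Scd1 (0.67), and Elovl6 with Fasn is at 0.00.

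The list with the highest r differed by gene. Fasn followed the alveolar type 2 marker mean most closely (r = 0.75, rho = 0.67, adjusted permutation p = 5.33e-05, r = 0.70 without the 2 farthest mice). It also followed the other fatty acid synthesis genes (r = 0.64, rho = 0.61), cholesterol synthesis (r = 0.63, rho = 0.50) and alveolar macrophage markers (r = 0.55, rho = 0.41). Acly followed type 2 markers (r = 0.51), other fatty acid synthesis genes (r = 0.50) and cholesterol synthesis (r = 0.49). The type 2 list holds Lpcat1 and Fabp5, which handle surfactant lipid and fatty acids themselves.

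Scd1 followed cholesterol synthesis (r = 0.62, rho = 0.55), alveolar macrophage markers (r = 0.52, rho = 0.44) and type 2 markers (r = 0.50, rho = 0.43). Acaca followed the clock activators Arntl, Clock and Npas2 (r = 0.51, rho = 0.51, adjusted permutation p = 5.33e-05, r = 0.48 without the 2 farthest mice), against r = 0.32 with the type 2 markers. Scd1 also followed the clock activators (r = 0.32).

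The replicate number in the labels went with the clock activators. Up to 78 weeks, their mean lay above the group mean in 22 of 23 mice numbered 1 and in 1 of 15 numbered 5. Acaca lay above its group mean in 16 of 23 mice numbered 1 and in 4 of 15 numbered 5. With the mean of each number taken away and mice of the same number permuted, an alternative added after seeing the data, r was 0.47 for Acaca and the clock activators and 0.69 for Acaca and Scd1 (adjusted permutation p = 3.81e-05 each). All 35 of the 80 relations that had passed did so again, and 39 passed in all, among them Acaca with Elovl6 (r = 0.22, adjusted permutation p = 0.0277).

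Elovl6 followed markers of fat tissue and of ciliated cells, and not these alone. Its r was 0.41 with brown fat markers (rho = 0.30, adjusted permutation p = 0.00272), 0.30 without the 2 farthest mice, 0.32 with white fat markers (adjusted permutation p = 0.00554) and 0.33 with ciliated cell markers (adjusted permutation p = 0.000505). With the mean of each replicate number taken away, r was 0.34 with club cell markers (adjusted permutation p = 0.000154) and 0.34 with heart muscle markers (adjusted permutation p = 0.000171). By that measure it was 0.38 with ciliated cell, 0.42 with white fat and 0.48 with brown fat markers. One TG mouse in air at 26 weeks had the highest Elovl6 of all mice, 6.52, against 4.58, 4.45 and 4.06 in the others of its group. Its brown fat marker mean was the highest of its group at 7.65, where the lowest was 5.25. The part of fat tissue in Elovl6 levels was not tested.

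**Figure D4:**
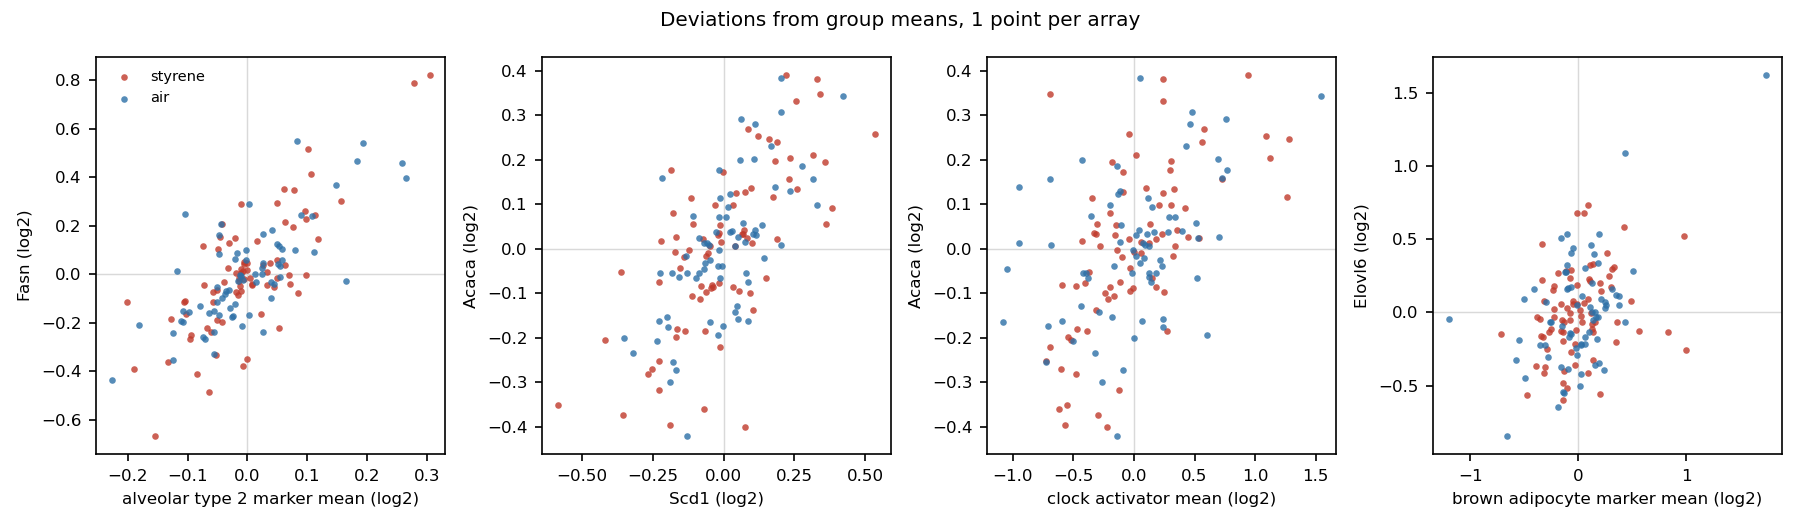
Within-group deviations (log2) of 150 mice for Fasn against the alveolar type 2 marker mean (r = 0.75), Acaca against Scd1 (r = 0.67), Acaca against the clock activators (r = 0.51) and Elovl6 against the brown fat marker mean (r = 0.41). Each point is 1 mouse, and the Elovl6 panel has a few mice far to the right.

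Across the 31 group means, which share the plates and ages of the groups, r was 0.72 for Acaca and Scd1, 0.70 for Fasn and Acly, 0.65 for Scd1 and Acly, and -0.49 for Fasn and Elovl6. The genes most like the average of the 5 over group means were Actg1 (r = 0.71), 1700086P04Rik (0.70), Cyp51 (0.69), Gm14057 (0.69), Klhdc1 (0.69), Dram1 (0.66), Rad23b (0.66), Acoxl (0.65), Steap2 (0.65) and Hsd17b7 (0.65). Cyp51 and Hsd17b7 encode enzymes of cholesterol synthesis. Over within-group deviations they were Mal (r = 0.67), Muc1 (0.66), Itga7 (0.64), Fabp5 (0.63), Mfsd2a, Fdps, Tgoln1 and Lrg1 (0.62 each), Slc26a4 (0.61) and Cyp51 (0.60). Mfsd2a, a lysophospholipid transporter, and Fdps, of the mevalonate pathway, also handle lipids or their precursors.

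By single gene, Fasn was closest to Lrg1 (r = 0.79), Tm7sf2 (0.78) and Fdps (0.77), the last pair being enzymes of sterol synthesis. Acly was closest to Fdps (0.57), and Slc25a1, the citrate carrier, stood at 0.53. Acaca was closest to Scd1 (0.67), followed by Heatr1 (0.59), and Arntl stood at 0.50. Scd1 was closest to Mal (0.69). Elovl6 was closest to Setd2 (0.51) and the cilia gene Ccdc39 (0.51), with Ucp1, the uncoupling protein of brown fat, at 0.50. These likenesses are descriptions, and the genes were chosen by their r.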

How the data were processed

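Affymetrix HT MG-430 PM arrays measured the lung RNA of 150 mice, 1 array each, out of 154 that the design states. The deposited values are log2 intensities made by the authors with RMA, and the submitters' processing notes also name Partek. Their versions were not given in the sources used here. The values ran from 1.74 to 14 over 45037 probe sets. Groups came from each sample's labels, and plates from the wells in the labels. The annotation gave 1 gene for 28898 probe sets and several genes or none for 551, and 15588 were unnamed here. Each gene took its probe set with the highest mean. Genes above the 30th percentile in at least 3 arrays were kept (15695 kept, 1402 removed).

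One limma fit (version 3.58.1, R 4.3.3) over all arrays used 31 group means and a term for plate 2, with Benjamini-Hochberg adjustment over all genes tested, and every adjusted p called limma's comes from it. Called means an adjusted p under 0.05. Comparisons over strains or weeks weight each equally. Within-group deviations were correlated with 100000 permutations within groups, two-sided. The members and lists were chosen with earlier results of these data known, and the lipid pathway lists were added to the marker lists. Named genes are the members, up to 4 genes of a list with the smallest p, and the 10 genes most like the members over group means and over deviations. The nearest genes of single members were picked by their r. The number of arrays limits the precision. Alternatives tried were other filters, probe sets, covariates and animals, the fit without the plate term and with a replicate block. Over all genes, 20 of 64 same-numbered pairs of styrene and air mice had r over 0.1. Only in TG mice at 26 weeks did every pair (4 of 4). The main fit used no pairing in any group. The replicate block, a term for the number over all arrays, changed no member's call in TG mice at 26 weeks. The number still went with clock genes, so relations were also computed without it.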

Additional observations from a re-analysis of the deposited data

Results flagged for a closer look

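Of 135 combinations of gene and group with 4 to 10 mice, 12 held a mouse far from the others of its group, where chance gives about 1 in 20. Fasn was 11.2 in KO air replicate 1 at 78 weeks, where the others lay between 10.41 and 10.51, and 11.7 in CD-1 styrene replicate 4 at 104 weeks. Acaca was 7.57 in KO air replicate 4 at 78 weeks and 7.71 in CD-1 styrene replicate 1 at 26 weeks. Scd1 was 12.82 in TG styrene replicate 2 at 26 weeks and 12.22 in CD-1 air replicate 5 at 104 weeks. Elovl6 was 4.04 in KO air replicate 4 at 26 weeks, 4.43 in CD-1 air replicate 1 at 104 weeks and 5.41 in TG air replicate 1 at 104 weeks, where the others lay between 3.93 and 4.15. Acly was 10.9 in TG styrene replicate 1 at 26 weeks, 10.81 in CD-1 air replicate 4 at 26 weeks and 10.35 in CD-1 air replicate 3 at 78 weeks.

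The difference between styrene and air in Fasn itself differed between strains at 104 weeks, by 0.62 for WT minus TG and by 0.65 for CD-1 minus TG, and for Acly by 0.26 for CD-1 minus TG, each by the test of the difference in the limma fit. WT, CD-1 and TG mice each have their air and styrene arrays on different plates at that time.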

How the results depend on the processing

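Styrene against air gave 3 calls for the 5 genes, 5 with the mean of all probe sets of a gene, 1 without tumour-labelled mice, and 5 with the second probe set, which lowered Acaca at 104 weeks by log2 -0.55 in WT and -0.38 in CD-1 mice. Between strains in styrene, 1 call became 2 with a stricter filter, 3 with the mean of probe sets, 3 without tumour-labelled mice, 4 with the main axis of within-group variation as a covariate, 3 with white fat markers as one, 2 with the second probe set, 4 without the 5 arrays farthest along that axis and 0 with type 2 markers as a covariate. Fitting C57BL/6 and CD-1 arrays separately gave 1 among C57BL/6 strains, where all arrays together gave 0. At single weeks, 2 calls became 1 with the mean or the second probe set and 4 with the axis, and separate fits gave 2 among C57BL/6 strains against 1. Over weeks in air, 1 call became 0 with the mean of probe sets, and within strains 0 became 1 without the plate term or with the axis. Over weeks in styrene, 3 calls became 6 without the plate term and 1 with the replicate block. In single strains 0 became 3 without the plate term, 2 with the mean or the second probe set or white fat markers, and 1 with separate fits, the axis or type 2 markers. Differences in the styrene effect at single weeks gave 3 calls, 1 without tumour-labelled mice, 6 with the axis and 0 with type 2 markers.

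Reversed values were Fasn at 104 weeks with type 2 markers as a covariate (-0.06 in WT, and -0.03 for the WT minus TG difference) and Acaca at 78 against 26 weeks in air with the second probe set (0.24, against -0.14). The cause was not tested. The type 2 marker covariate, the second probe set and the omission of far arrays were chosen after seeing the data. With the replicate block, Acaca at 78 against 26 weeks was 0.24 (limma adjusted p = 0.0778) and Scd1 was 0.27 (limma adjusted p = 0.0644). Without the plate term Fasn in TG mice at 78 weeks differed by 0.57 (limma adjusted p = 0.00832), against 0.47 (limma adjusted p = 0.264).

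Leaving out 1 mouse at a time (121 omissions) gave 2 to 4 calls for styrene against air, 1 to 3 between strains in styrene (1 to 4 at single weeks), 0 to 1 between strains in air (0 to 1 at single weeks), 0 to 2 over weeks in air (0 to 1 in single strains), 1 to 3 over weeks in styrene (0 to 1 in single strains), 0 to 0 for averaged and 2 to 5 for single-week differences in the styrene effect. The median r between the genes was 0.36 and ranged from 0.32 to 0.38 on plates 1, 3 and 4, and was 0.38 with the mean of each replicate number taken away. The lower level of Elovl6 and the second probe sets, near background, limits what they can show.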
